A study of Mus musculus with 12 samples.

Results

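Suppressive effector molecules are the secreted and surface proteins through which regulatory T cells (Treg cells) restrain other immune cells. The set described here holds 7 of the 45101 probe sets on the arrays, chosen by identifier and assigned to 5 genes. Il10, Ebi3 and Tgfb1 have 1 probe set each, while Fgl2 and Nt5e have 2 each, called A and B here in the order of their identifiers. The array identifiers are ID.1450330_AT for Il10, ID.1449222_AT for Ebi3, ID.1421854_AT and ID.1421855_AT for Fgl2 A and B, ID.1422974_AT and ID.1428547_AT for Nt5e A and B, and ID.1420653_AT for Tgfb1. No threshold on measured values was used.

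Expression was measured on 12 Affymetrix mouse arrays of spleen CD4+ CD25hi T cells, 3 arrays in each of 4 groups. The Treg cells were sorted directly from fresh spleen, whereas effector T cells came from whole spleen cultured with anti-CD3 for 48 hours. Anti-CD3 is an antibody that activates T cells through their antigen receptor. One source of both populations was the C57BL/6-2Rbeta-WT/thymus transgenic line, bred onto deficiency of the IL-2 receptor beta chain, and the other was normal C57BL/6 animals. The transgenic mice therefore differ from the C57BL/6 mice in both the receptor deletion and the transgene, whose name places the wild-type receptor chain in the thymus. The labels do not name its promoter. Transgenic Treg arrays held pools of 4, 8 and 3 mice, aged 33, 13 and 7 to 16 weeks. C57BL/6 Treg arrays held pools of 8, 8 and 15 mice, aged 12, 12 and 10 weeks. Each effector array held 1 mouse, aged 9 to 15 weeks in the transgenic group and 10 to 14 weeks in the C57BL/6 group. The probe sets of the lineage marker genes and of the disrupted receptor gene are not paired with genes in the tables used, so the labelled cell types and the deletion were not checked here.

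The values are deposited log2 GCRMA values, in which 1 unit is a doubling. The medians of single arrays ran from 3.08 to 3.27, and values under a log2 value of 5 are treated here as low, since their size depends on the background correction. All 7 members reached 5 on at least 3 arrays, as did 18271 of the 45037 probe sets that are not controls. The Fgl2 probe sets and Nt5e probe set A reached 5 on Treg arrays alone, and Il10 on 1 effector array besides, so these 4 members were tested only because their Treg values were high. Differences were tested in limma over all tested probe sets, and a member is called changed at a Benjamini-Hochberg adjusted p under 0.05. In 9 tested probe sets, C57BL/6 Treg array 3 lay with all transgenic arrays but effector array 1, at least 2 log2 units from the other arrays. At the same gap, 2 tested probe sets split by the labelled strain over all 12 arrays. The purification label of transgenic effector array 3 describes fresh spleen cells, against its title and source. Calls and signs that change without 1 of these arrays are given with both values.

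The 5 genes act in different ways. IL-10, encoded by Il10, is a secreted cytokine that lowers the activity of antigen-presenting cells. Ebi3 encodes a cytokine subunit shared by IL-35 and IL-27, and Tgfb1 encodes TGF-beta, which is stored in a latent form and must be activated. Fgl2 encodes a fibrinogen-like protein that in its secreted form binds inhibitory Fc receptors. Nt5e encodes CD73, the surface enzyme that makes adenosine from AMP after CD39 has degraded ATP. IL-2 acts on T cells through STAT5, a transcription factor that binds motifs known as GAS sites.

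In GRCm38.p6, Il10 lies on chromosome 1 at 131019845 to 131024970, Ebi3 on chromosome 17 at 55952623 to 55957022, and Fgl2 on chromosome 5 at 21372673 to 21378386. Nt5e lies on chromosome 9 at 88327609 to 88372089 and Tgfb1 on chromosome 7 at 25687002 to 25705077. RefSeq promoter sequences were matched for 4 of the 5 genes (Ebi3, Fgl2, Nt5e and Tgfb1). The 250 bases before the gene start were searched on both strands for the GAS motif TTCNNNGAA, the AP-1 motif TGANTCA, the SMAD motif CAGACA and the forkhead motif TGTTTAC. No match overlapped a match of another motif. Fgl2 and Nt5e are printed, Nt5e because it is the only member whose strain change was called and Fgl2 because it holds the only GAS and AP-1 matches among the 4 promoters. Capitals mark the matches.
Fgl2, GRCm38.p6 chr5:21372423-21372672, plus strand: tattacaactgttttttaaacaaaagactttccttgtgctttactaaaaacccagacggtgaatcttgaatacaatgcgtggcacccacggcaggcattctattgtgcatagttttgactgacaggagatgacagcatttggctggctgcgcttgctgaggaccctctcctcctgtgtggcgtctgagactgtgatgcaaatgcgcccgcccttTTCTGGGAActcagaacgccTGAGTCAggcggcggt
Nt5e, GRCm38.p6 chr9:88327359-88327608, plus strand: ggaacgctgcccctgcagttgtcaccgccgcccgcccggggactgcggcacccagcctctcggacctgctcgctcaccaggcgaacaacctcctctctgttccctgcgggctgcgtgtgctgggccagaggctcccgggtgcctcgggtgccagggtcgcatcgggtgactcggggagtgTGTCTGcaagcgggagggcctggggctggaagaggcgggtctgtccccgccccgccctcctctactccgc

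The Fgl2 window held 1 GAS match starting 36 bases before the gene start and 1 AP-1 match starting 16 bases before it. Of 32851 promoter windows of the same length, 7.02% held a GAS match and 6.75% an AP-1 match. In the Nt5e window the only match was a SMAD motif, read on the opposite strand and starting 70 bases before the gene start, and 17.1% of all windows held this motif. Ebi3 also held 1 SMAD match, 219 bases before its start, and the Tgfb1 window held none of the 4 motifs. The forkhead motif, which 3.17% of windows held, was found in none of the 4 promoters. These matches describe the letters alone.

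In activated effector T cells, Nt5e was the member with the strain change that passed the test. Its probe set B rose by 2.98 on the log2 scale in transgenic against C57BL/6 effector cells, a 7.87-fold difference. The values were 7.67, 7.22 and 7.82 on the transgenic arrays and 4.68, 3.82 and 5.28 on the C57BL/6 arrays. The groups did not overlap, and 2 of the 3 C57BL/6 values were low. The means were 7.57 ± 0.31 in transgenic and 4.59 ± 0.74 in C57BL/6 effector cells (log2, SD, n = 3), and the standard error of their difference was 0.30 (limma adjusted p = 0.000313). The rise was 2.47 when values under 5 were raised to 5 (limma adjusted p = 3.40e-05), and 2.59 to 3.32 with any single array left out (limma adjusted p at most 0.00289). In bulk RNA, more or fewer cells of a type and more or less RNA per cell cannot be told apart.

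The other Nt5e probe set, probe set A, did not show this difference. It read 3.05, 3.37 and 3.09 on the transgenic effector arrays and 3.03, 3.08 and 3.07 on the C57BL/6 effector arrays. All 6 values lay close to the array medians, where the background correction sets the level. The difference was 0.11 with a 95% interval of -0.90 to 1.13 (limma adjusted p = 0.983). The rise of Nt5e in transgenic effector cells thus rests on 1 of its 2 probe sets. Across the whole table, 2.99% of probe sets were called in this comparison and 1.92% were called higher.

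**Figure D1:**
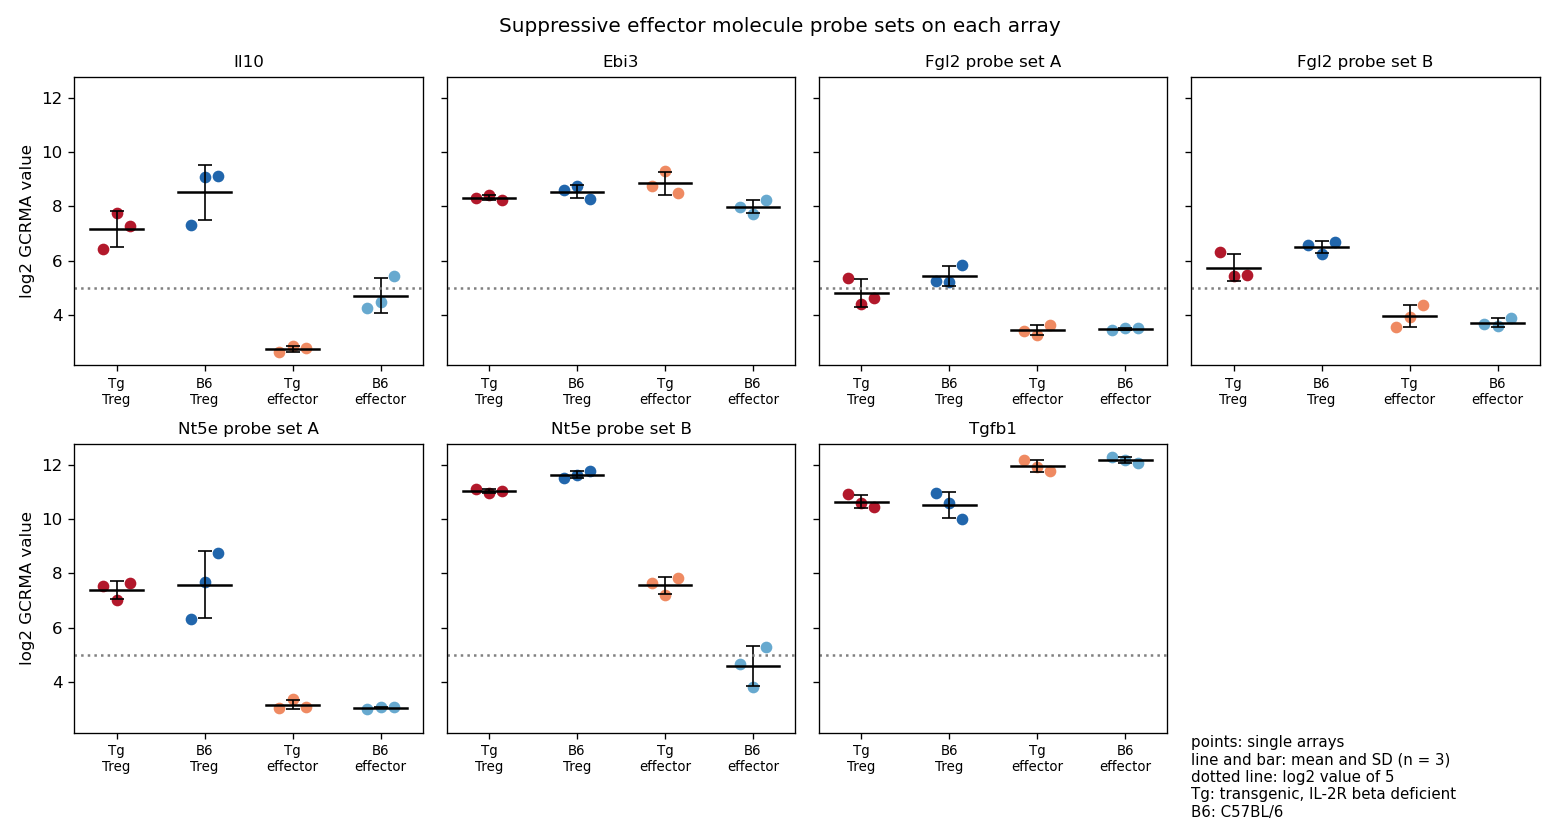
Deposited log2 GCRMA value (vertical axis) of each of the 7 probe sets on every array, by group, with mean and SD of 3 arrays and a dotted line at 5. Nt5e probe set B stands at 7.22 to 7.82 in transgenic and 3.82 to 5.28 in C57BL/6 effector cells. It is higher in Treg than in effector cells of the same strain. Il10, both Fgl2 probe sets and Nt5e probe set A also read higher in Treg cells, but the filter on low values set this for them.

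Il10 was lower in transgenic effector cells on every array, without passing the test. It read 2.63, 2.85 and 2.81 on the transgenic arrays and 4.25, 4.47 and 5.44 on the C57BL/6 arrays. In all, 5 of the 6 values were low, and the transgenic values lay under the array medians. The difference was -1.96 (standard error 0.50, limma adjusted p = 0.0629). It was -0.15 when values under 5 were raised to 5 (limma adjusted p = 1.0), so nearly all of it lay below 5. Without C57BL/6 Treg array 1, which enters only the shared variance, the same difference had a limma adjusted p of 0.0162.

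Ebi3 was higher in transgenic effector cells on every array, likewise without passing the test. Its values were 8.74, 9.31 and 8.51 in transgenic and 8.00, 7.74 and 8.24 in C57BL/6 effector cells, all well above the low range. The groups did not overlap, and the difference was 0.86, or 1.81-fold (standard error 0.22, limma adjusted p = 0.0692). Without transgenic effector array 3, the one with the discordant purification label, the difference was 1.03 and passed the test (limma adjusted p = 0.0394).

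Tgfb1 and Fgl2 showed smaller differences between the effector groups. Tgfb1 read 12.18, 11.91 and 11.77 in transgenic and 12.27, 12.18 and 12.08 in C57BL/6 effector cells. These groups overlapped, and the difference was -0.22 with a 95% interval of -0.71 to 0.27 (limma adjusted p = 0.750), or -0.13 without transgenic effector array 3. All 12 effector values of the Fgl2 probe sets were low, between 3.29 and 4.37 in transgenic and between 3.46 and 3.91 in C57BL/6 cells. Their differences of -0.058 for probe set A and 0.23 for probe set B had limma adjusted p of 0.987 and 0.814. Without transgenic effector array 3 the difference of probe set B was 0.019, and without transgenic effector array 1 it was 0.42. Of the 7 members, 1 was called, against 2.99% of all tested probe sets. The groups did not overlap in 3 members, against 22.8% of all tested probe sets. The median member difference was 0.11, and that of all tested probe sets was -0.0053.

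In Treg cells none of the 7 members passed the test between strains, against 1.19% of all tested probe sets. At an unadjusted p under 0.05, limma gave Il10 and Fgl2 probe set B, against 9.38% of all tested probe sets. Fgl2 probe set A is left out of these, because it passed the filter on low values through its C57BL/6 Treg arrays. Of its 3 transgenic Treg values 2 were low, so the filter favoured a negative difference for it. Of the 7 differences, 6 were negative, as were 45.5% of those of all tested probe sets. The median member difference was -0.59, and that of all tested probe sets was 0.028. Both this count and this median include Fgl2 probe set A, so they are a description and no downward lean of the members is drawn from them. The same 7 probe sets measure 5 genes, and Fgl2 and Nt5e each give a pair of these differences.

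Il10 had the widest difference of the members in Treg cells. Its values were 6.44, 7.75 and 7.27 on the transgenic arrays and 7.33, 9.10 and 9.11 on the C57BL/6 arrays. The groups overlapped, because C57BL/6 array 1 read lower than transgenic array 2. Each transgenic array read lower than the C57BL/6 array of the same number. With same-numbered arrays as blocks, a pairing taken from these data and not from the labels, the difference had a limma adjusted p of 0.0923. The means of 7.15 ± 0.66 and 8.51 ± 1.02 in transgenic and C57BL/6 Treg cells (log2, SD, n = 3) differed by -1.36, with a 95% interval of -2.45 to -0.27 (limma adjusted p = 0.349). With single arrays left out it ran from -1.95 without C57BL/6 array 1 (limma adjusted p = 0.0533) to -1.005 without transgenic array 1 (limma adjusted p = 0.940). Added bacterial and phage control transcripts averaged 10.52, 10.50 and 10.79 on the transgenic Treg arrays and 12.65, 11.63 and 10.50 on the C57BL/6 Treg arrays, and their part in the Treg differences was not tested.

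Both Fgl2 probe sets were lower in transgenic Treg cells by similar amounts, and probe set B, for which a test is given, did not pass it. Probe set B read 6.32, 5.43 and 5.47 in transgenic and 6.56, 6.25 and 6.68 in C57BL/6 Treg cells. Probe set A read 5.38, 4.40 and 4.63 in transgenic and 5.27, 5.21 and 5.86 in C57BL/6 Treg cells. On both probe sets transgenic array 1, the pool aged 33 weeks, lay within the C57BL/6 range, while the other 2 transgenic arrays lay below all C57BL/6 arrays. The difference of probe set B was -0.75, with a 95% interval of -1.36 to -0.15 (limma adjusted p = 0.352). That of probe set A was -0.64. Probe set A passed the filter on low values through its C57BL/6 arrays, as 2 of its 3 transgenic values were low. The filter thus favoured a negative difference for it, which is given as a description with no test. Without transgenic array 1 the differences were -1.04 for probe set B (limma adjusted p = 0.152) and -0.93 for probe set A. The part of the age of this pool was not tested.

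Of the 7 members, only Nt5e probe set B had Treg groups that did not overlap. This share is close to the 14.8% of all tested probe sets whose groups did not overlap, so it does not set the members apart. Nt5e probe set B read 11.12, 10.97 and 11.04 in transgenic and 11.51, 11.64 and 11.75 in C57BL/6 Treg cells. The difference of -0.59 was small beside the shared variance of this probe set, whose effector arrays scatter more (standard error 0.30, limma adjusted p = 0.637). Fitted on the 6 Treg arrays alone, it was still not called (standard error 0.12, limma adjusted p = 0.170). Probe set A read 7.55, 7.01 and 7.64 in transgenic and 6.32, 7.70 and 8.77 in C57BL/6 Treg cells. It differed by -0.19, with a 95% interval of -1.21 to 0.82 (limma adjusted p = 0.968), and by 0.39 without C57BL/6 array 3.

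Ebi3 and Tgfb1 differed little between the Treg strains. Ebi3 read 8.31, 8.41 and 8.25 in transgenic and 8.60, 8.75 and 8.28 in C57BL/6 Treg cells, a difference of -0.22 with a 95% interval of -0.71 to 0.27 (limma adjusted p = 0.889). Tgfb1 read 10.91, 10.58 and 10.45 in transgenic and 10.95, 10.60 and 9.99 in C57BL/6 Treg cells. Its difference was 0.13 with a 95% interval of -0.36 to 0.62 (limma adjusted p = 0.951), and it was -0.13 without C57BL/6 array 3.

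**Figure D2:**
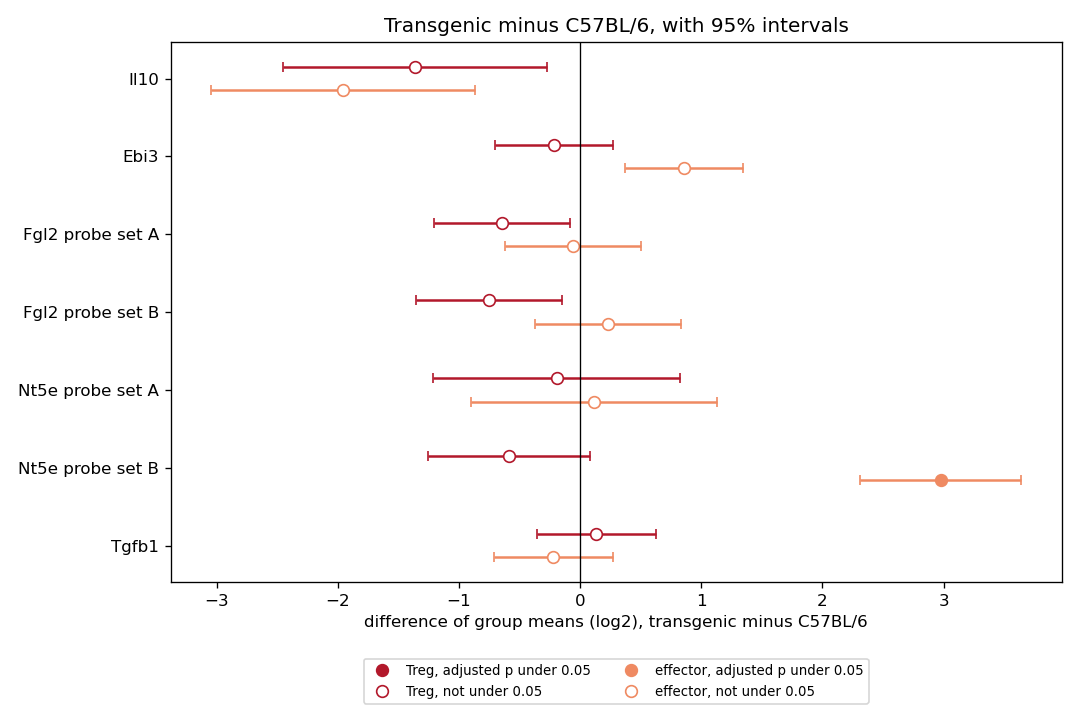
Transgenic minus C57BL/6 difference of group means (log2, horizontal axis) for each probe set in Treg cells and in effector cells, with 95% intervals from limma, where filled points have an adjusted p under 0.05. Nt5e probe set B in effector cells, at 2.98, is the only filled point. Fgl2 probe set A passed the filter on low values through its C57BL/6 Treg arrays, so its Treg point is a description.

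The strain difference itself was compared between the populations. It differed for Nt5e probe set B, which changed by -0.59 in Treg cells and by 2.98 in effector cells. The changes differed by -3.56 (standard error 0.43, limma adjusted p = 0.00156), and 2.26% of all tested probe sets passed this test. No other member passed it. Ebi3 came nearest, with changes of -0.22 in Treg and 0.86 in effector cells and a difference of -1.08 (95% interval -1.77 to -0.39, limma adjusted p = 0.127). Mean Il10 was lower in transgenic cells of both populations, but neither change was called. The limma adjusted p was 0.349 in Treg and 0.0629 in effector cells. Most Il10 effector values were low, and the effector change was -0.15 with low values raised to the limit. The difference between the Il10 changes was 0.60 with a 95% interval of -0.94 to 2.14 (limma adjusted p = 0.779). It was -1.21 with low values raised in the same way. For Fgl2 probe set B the difference between the changes was -0.98 (limma adjusted p = 0.293), with effector values too low to show a fall.

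**Figure D3:**
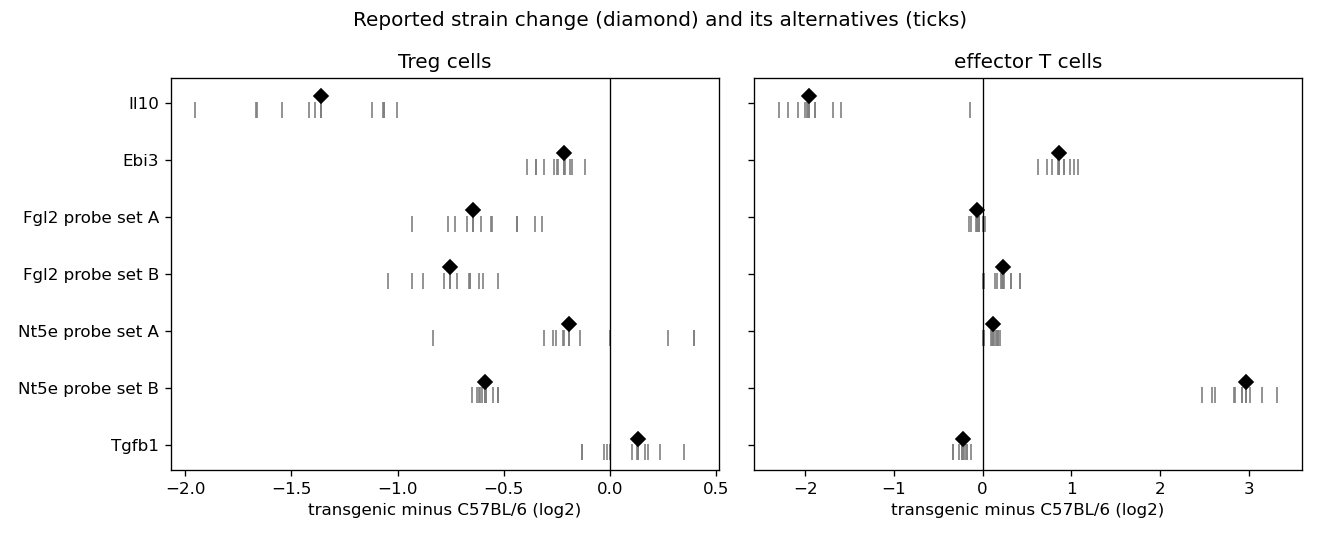
Transgenic minus C57BL/6 difference (log2, horizontal axis) of each probe set as reported (diamond) and under each alternative processing (ticks), in Treg cells on the left and effector cells on the right. The ticks of Nt5e probe set B in effector cells lie between 2.47 and 3.32, and those of Il10 reach -0.15 where low values were raised to 5.

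Between fresh Treg cells and cultured effector cells, Nt5e probe set B was higher and Tgfb1 lower in the Treg cells of both strains. Culture, activation, the order of sample codes and the number of pooled mice all differed between the populations, and their effects cannot be told apart from that of cell type. Minimum values were 0.94 to 0.96 on the Treg arrays and 0.30 to 0.33 on the effector arrays, and the labels do not say whether all arrays were normalized together. The background is broad, since 70.0% of all tested probe sets were called in transgenic mice and 73.8% in C57BL/6 mice. Il10, both Fgl2 probe sets and Nt5e probe set A passed the filter on low values through Treg arrays alone, so a difference between the populations was set by the filter for them. Their differences are given as a description with no test, and tests are given for Nt5e probe set B, Tgfb1 and Ebi3.

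Nt5e probe set B was higher in Treg cells by 3.48 in transgenic and by 7.04 in C57BL/6 mice (limma adjusted p = 1.31e-06 and 6.11e-09). With low values raised to 5 the C57BL/6 difference was 6.54, since 2 of its 3 effector values were low. Probe set A stood above its effector values by 4.23 in transgenic and 4.53 in C57BL/6 mice, and by 2.40 and 2.59 with low values raised to 5. For Il10, Treg means exceeded effector means by 4.39 in transgenic and by 3.79 in C57BL/6 mice, or by 2.15 and 3.37 with low values raised to 5.

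On Fgl2 probe set B, Treg means exceeded effector means by 1.79 in transgenic and 2.77 in C57BL/6 mice, or by 0.74 and 1.496 with low values raised to 5. On probe set A the differences were 1.36 and 1.94, or 0.13 and 0.45 with low values raised to 5. The sizes for Fgl2 thus depend on effector values in the low range.

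Tgfb1 was lower in Treg than in effector cells of both strains. The differences were -1.31 in transgenic mice and -1.66 in C57BL/6 mice, each at a standard error of 0.22 (limma adjusted p = 0.000281 and 3.84e-05). They were -0.64 and -0.95 after quantile normalization over the 12 arrays, still past the test (limma adjusted p = 0.0311 and 0.00361). Ebi3 differed by -0.53 in transgenic mice (limma adjusted p = 0.0521) and by 0.55 in C57BL/6 mice (limma adjusted p = 0.0421). After quantile normalization these were -0.10 and 0.93 (limma adjusted p = 0.690 and 0.00273), and with arrays centred on their medians -0.23 and 0.87 (limma adjusted p = 0.381 and 0.00432). The C57BL/6 difference failed the test with any 1 of 8 arrays left out: each transgenic Treg array, C57BL/6 Treg array 1 or 2, transgenic effector array 1, and C57BL/6 effector array 1 or 2 (limma adjusted p of 0.0514 to 0.148). In transgenic mice it passed without effector array 3, at -0.70 (limma adjusted p = 0.0165), and without C57BL/6 Treg array 3 (limma adjusted p = 0.0456). The test of whether the 2 Ebi3 differences differ is the same as that of the strain changes above, which was not passed.

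**Figure D4:**
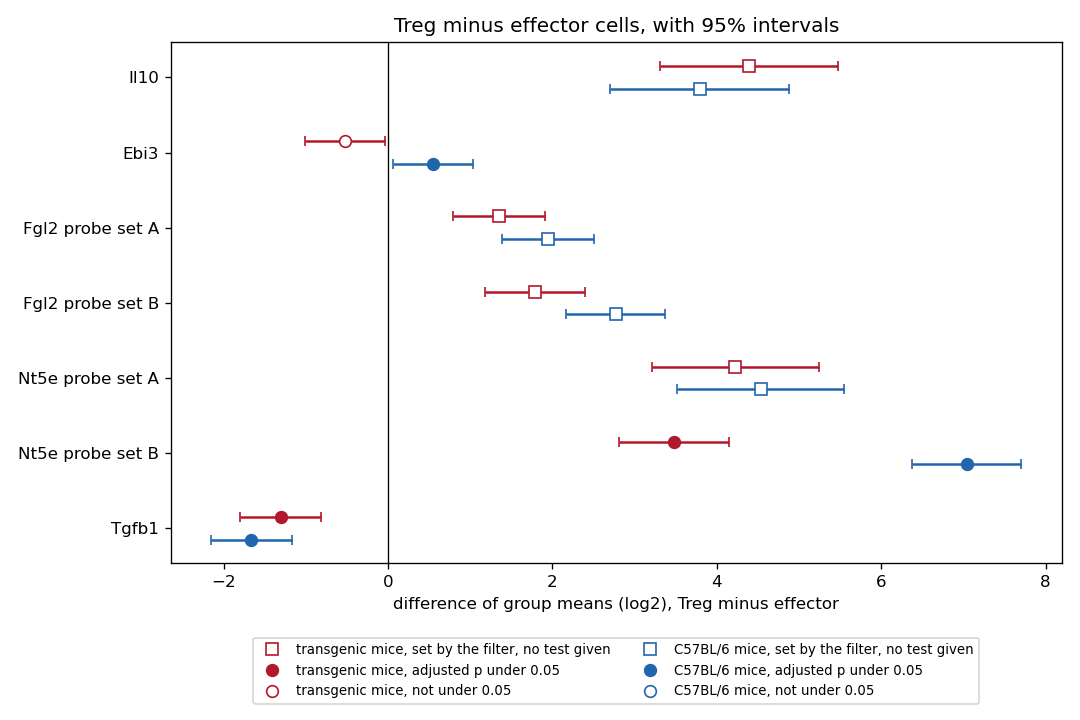
Treg minus effector difference of group means (log2, horizontal axis) for each probe set in transgenic and C57BL/6 mice, with 95% intervals from limma, where filled circles have an adjusted p under 0.05, open circles do not, and squares are members that passed the filter through Treg arrays alone. Tgfb1 lies below 0 in both strains, and Nt5e probe set B is at 3.48 in transgenic and 7.04 in C57BL/6 mice.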

How the data were processed

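Affymetrix expression was analysed for 12 arrays in 4 groups of 3, grouped by their titles. The authors deposited log2 values made with GCRMA (background correction, normalization and probe set summary), per the submitters' processing notes, which give no version. Per the labels' protocols, RNA was amplified by 1 round of transcription in vitro. Per the design text, replicates were biologically distinct. The 64 control probe sets were left out, and probe sets at log2 5 or more on at least 3 arrays were tested. One model of 4 group means was fitted in limma 3.58.1 (R 4.3.3) with a variance trend, and p-values were adjusted over all 18271 probe sets at 0.05. The number of arrays limits the precision: for 3 against 3, the smallest two-sided p of an exact permutation test is 0.1.

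All 7 members are named whatever their values, with gene names from the rule: Il10 1450330_AT, Ebi3 1449222_AT, Fgl2 1421854_AT (A) and 1421855_AT (B), Nt5e 1422974_AT (A) and 1428547_AT (B), and Tgfb1 1420653_AT. The members, tests and lists were chosen with earlier results of these data known. The pathway and cell type lists and the rule for genes of like pattern could not be applied, because no table used here pairs other probe sets with genes. Same-numbered transgenic and C57BL/6 Treg arrays correlated in their deviations from the group means at 0.58, 0.10 and 0.51. They were taken as paired above a limit of 0.1, from the data and not the labels. The arrays numbered 2 only just passed this limit. Transgenic array 2 correlated at 0.11 with C57BL/6 array 3, so the data do not single out its partner. The reported model left the pairing out, and only the replicate block used it. Same-numbered effector arrays correlated at 0.21, -0.34 and -0.34 and were not taken as paired. Alternatives covered scale, filter, variance model, array weights (the gene-by-gene method), arrays in the fit, replicate blocks, blocks of neighbouring sample codes (taken as runs, which the labels do not name), threshold and single arrays left out. Figures were drawn with matplotlib 3.10.9.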

Additional observations from a re-analysis of the deposited data

Results flagged for a closer look

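Nt5e probe set B was picked out because its strain change differed between the populations by the test of the difference itself, at -3.56 on the log2 scale (limma adjusted p = 0.00156). Transgenic cells were below C57BL/6 cells in Treg (11.05 and 11.63) and above them in effector cells (7.57 and 4.59), on all 3 arrays of each group. The Treg change of -0.59 was not called (limma adjusted p = 0.637), and the effector change of 2.98 was the larger part. Across the alternatives the difference of strain changes ran from -3.91 to -3.06, with a limma adjusted p of at most 0.0146. The other Nt5e probe set, A, gave -0.31 (95% interval -1.75 to 1.13, limma adjusted p = 0.895), with all its effector values low. Groups of 3 arrays were too small for the search for outlying arrays.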

How the results depend on the processing

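The effector strain change of Nt5e probe set B and its difference between populations kept direction and call under all 24 alternatives each. The number of members called between strains in effector cells, 1 as reported, was 2 with quantile normalization, the 6 effector arrays alone or the replicate block (Il10 in addition), 3 with array weights (Il10 and Ebi3 in addition), and 1 to 2 with single arrays left out. In Treg cells it was 0, and 1 with array weights (Il10, -1.66, limma adjusted p = 0.0218). The weight of C57BL/6 Treg array 2 was 5.02, against 0.45 and 0.24 for arrays 1 and 3, so this call rests mostly on 1 C57BL/6 array. For the difference of strain changes the number called was 1, and 2 with array weights (Ebi3 in addition, -1.47). In the reported fit, 2.99% of all tested probe sets were called in effector cells, 1.19% in Treg cells and 2.26% for the difference. The shares under the other settings were not counted, so a larger number of members called there cannot be set against them. The replicate block changed no call in Treg cells, where Il10 had a limma adjusted p of 0.0923. In effector cells, whose arrays share only a number, it gave Il10 -1.96 with a limma adjusted p of 0.0142. Between populations, Nt5e probe set B and Tgfb1 were called in both strains with any 1 of the 12 arrays left out. In the reported fit 70.0% of all tested probe sets were called in transgenic mice and 73.8% in C57BL/6 mice. The Ebi3 call changed as given above, and the 4 members tested only through their Treg values are not counted. Other signs turned only for members without a call. With single arrays left out, Nt5e probe set A in Treg cells ranged from -0.83 to 0.39 and its difference of strain changes from -0.95 to 0.28, Tgfb1 in Treg cells from -0.13 to 0.35, and Fgl2 probe set A in effector cells from -0.15 to 0.021. With a block of neighbouring sample codes, taken as runs although the labels name none, Nt5e probe set A was 0.27 in Treg cells and 0.16 for the difference, and Tgfb1 was -0.030 in Treg cells (-0.016 with array weights). Chosen after seeing the data were raising values under 5 to 5, where the Il10 difference of strain changes was -1.21, and leaving out C57BL/6 Treg array 3 with transgenic effector array 1, where Nt5e probe set A gave 0.39 in Treg cells and 0.22 for the difference, and Tgfb1 -0.13. The cause of these changes was not tested.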
